A study of Mus musculus with 9 samples.

Results

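Potassium channels are assembled from pore-forming subunits and auxiliary subunits encoded by the Kcn gene families, and their transcripts were examined in whole ovaries of WT and ERβKO mice. The members were the genes of the deposited table whose symbol has the form Kcn followed by a family letter and a number, without pseudogenes and opposite-strand transcripts and with 1 gene of this form left out, which gave 92 of 46078 genes. They fell into 29 voltage-gated pore subunits, 10 silent Kv subunits, 8 calcium- and sodium-activated pore subunits, 15 inward rectifiers, 14 two-pore-domain leak channels and 16 auxiliary subunits. The rule used symbols, keeping for each the entry with the highest summed count, and no difference between the genotypes. RNA-seq had been made from 5 WT and 4 ERβKO ovaries of C57BL/6J mice, 1 library per mouse. The ERβKO mice lack exon 3 of Esr2, the gene of estrogen receptor β, in every cell from the germline on, through a Rosa26-driven Cre, and the WT controls came from the same breeding without Cre. All samples are labelled as untreated, although the protocol in the labels also describes a high-fat diet and injections of the ERβ agonist DPN, so the diet of these mice is not known here. Mice of the study as a whole were 4 to 20 weeks old, and their ovaries were taken at no set stage of the estrous cycle. A whole ovary mixes follicles, corpora lutea, stroma and vessels, and in such bulk samples fewer cells of a type and less RNA per cell cannot be told apart.

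Potassium channels let potassium leave the cell down its gradient and thereby set the resting membrane potential and end excitation. Voltage-gated Kv, ERG and BK channels open on depolarization, inward rectifiers (Kir) and two-pore-domain (K2P) channels carry current near rest, and silent Kv subunits conduct only when joined to Kv2 subunits. Auxiliary subunits (Kvβ, KChIP, KCNE and BK β) bind to the pore and change its gating, trafficking or both. In the ovary, potassium currents have been recorded in granulosa cells, luteal cells and oocytes, where the membrane potential bears on calcium entry and steroid secretion.

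Libraries held between 12353740 and 18717510 counts, and the 92 members together took 0.078% to 0.0919% of them. Esr2 itself, counted over its whole length including the exons left in the deleted allele, lay between 12.4 and 23.9 FPKM in WT and between 10.5 and 23.7 in ERβKO ovaries, so this count does not check the genotype. FPKM, the fragment count scaled to gene length and library size, is used below to compare genes with each other. Markers of granulosa cells, luteal cells and oocytes were present in every ovary, and so were those of oviduct epithelium. The oviduct markers had a summed level of 1379 to 2493 FPKM, most of it from 1 gene, Ovgp1, with 1294 to 2359 FPKM. On the first principal component of all tested genes, which held 35.9% of the variance, WT replicate 2 had a score of 9.43, between the other WT ovaries (at most -15.6) and the ERβKO ovaries (at least 19.4). With 1 library per mouse, p-values set the genotype difference against the spread between these mice.

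Levels of the members spanned a wide range, and a few genes stood well above the rest. Over all 9 ovaries, 3 members had a mean above 10 FPKM, 29 lay between 1 and 10, 34 between 0.1 and 1 and 26 at or below 0.1, of which 10 were listed at 0 in every ovary. The KCNE subunit Kcne3, which keeps Kv7.1 channels open, led with 38.0 ± 10.2 FPKM (SD, n = 5) in WT and 29.9 ± 5.17 FPKM (SD, n = 4) in ERβKO ovaries. It was followed by the K2P channel gene Kcnk1 (TWIK-1) with 18.3 ± 5.23 FPKM in WT and 19.6 ± 1.20 in ERβKO ovaries, and by Kcnab3, a Kvβ subunit. The 5 highest members (Kcne3, Kcnk1, Kcnab3, Kcnk5 and Kcnip3) held 44.6% to 49.8% of the summed FPKM of all members in WT and 39.7% to 43.1% in ERβKO ovaries. The summed level was 196 ± 15.1 FPKM (SD, n = 5) in WT and 181 ± 4.48 FPKM (SD, n = 4) in ERβKO ovaries, and the ranges overlapped.

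**Figure D1:**
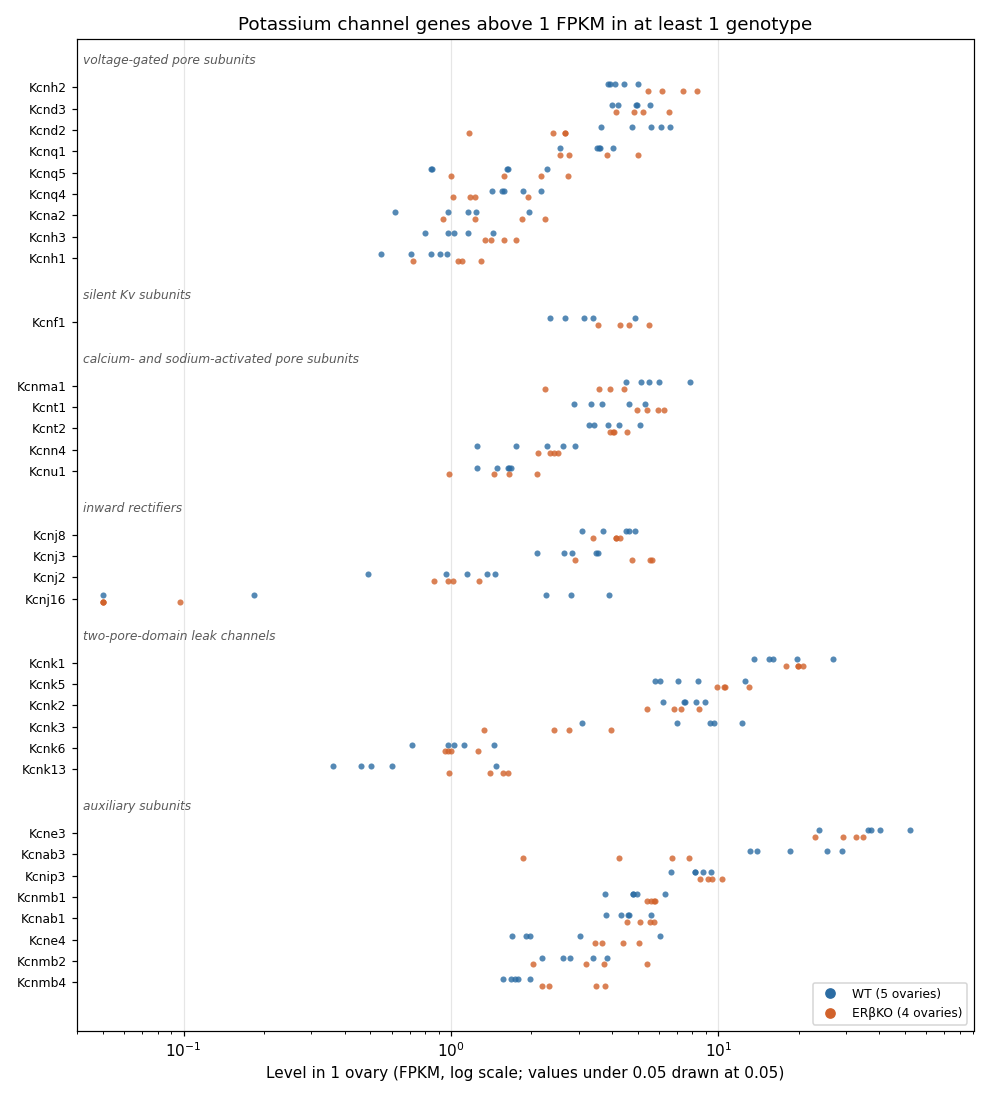
Level of the members with a mean above 1 FPKM in at least 1 genotype, with 1 left out, by class. Each point is 1 ovary (blue, 5 WT; orange, 4 ERβKO), the axis is logarithmic in FPKM, and values under 0.05 are drawn at 0.05. Kcne3 and Kcnk1 lie furthest to the right, and for Kcnab3 and Kcnd2 all orange points lie left of the blue ones.

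Split by class, auxiliary subunits took 41.8% to 47.0% of the summed FPKM in WT and 37.4% to 40.1% in ERβKO ovaries, without overlap between the genotypes. Voltage-gated pore subunits took 14.2% to 15.5% in WT and 15.9% to 17.0% in ERβKO ovaries, also without overlap. For K2P channels the shares were 21.7% to 26.5% and 23.6% to 25.3%, and for calcium- and sodium-activated channels 7.77% to 11.4% and 9.48% to 11.0%. Inward rectifiers took 4.37% to 6.14% in WT and 4.85% to 6.41% in ERβKO ovaries. Silent Kv subunits took 2.47% to 3.52% in WT and 3.43% to 4.66% in ERβKO ovaries, with a narrow overlap. These shares are descriptions, and a fall of 1 abundant gene such as Kcnab3 raises the shares of the other classes.

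**Figure D2:**
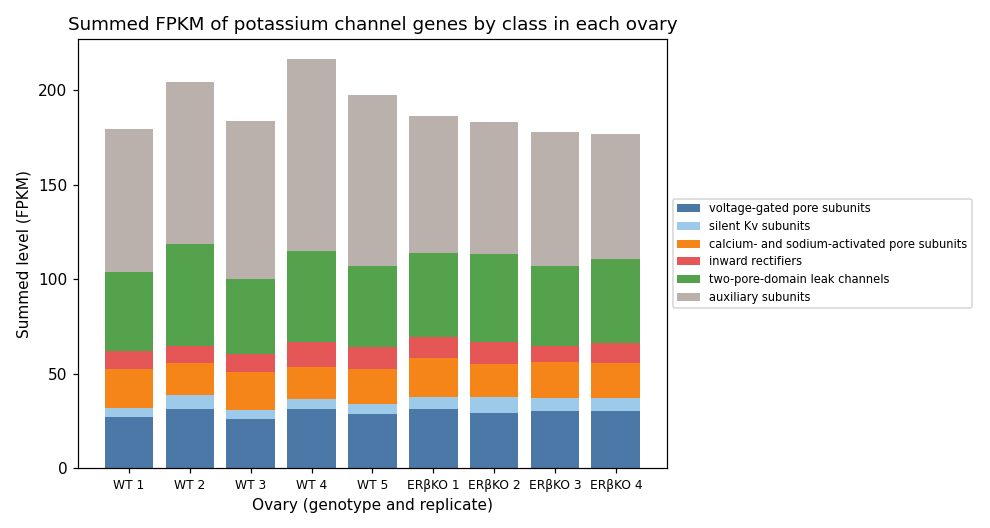
Summed FPKM of the members in each ovary, stacked by class. Auxiliary subunits form the largest block in all 9 ovaries, and the ERβKO totals lie between 177 and 187 FPKM against 179 to 216 FPKM in WT.

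Of the 92 members, 66 passed the filter on low counts and were tested over all 16722 tested genes, and the 26 left out had at most 18 counts in any library. A gene was called when its adjusted p was under 0.05, its absolute log2 fold change (ERβKO over WT) over 0.4 and its mean over 1 FPKM in at least 1 genotype, which 34 members reached. By the quasi-likelihood test of edgeR, adjusted after Benjamini and Hochberg, 1 member was called higher in ERβKO ovaries (Kcnh2) and 3 were called lower (Kcnj16, Kcnab3 and Kcnd2). Over all tested genes, 0.915% were called higher and 0.801% lower. DESeq2 called 2 members higher (Kcnh2 and Kcnj3) and 5 lower (Kcnj16, Kcnab3, Kcnd2, Kcnk3 and Kcnma1). Over all tested genes it called 2.24% higher and 2.56% lower. The 5 lower members are the potassium channel genes that the paper on these data names as downregulated, from the same tool and libraries. Their DESeq2 calls therefore repeat its result and are not independent of it. The genotypes did not overlap in TMM-scaled CPM, counts scaled to library size, for 3 members that were higher (Kcnh2, Kcnh6 and Kcnip4) and 4 that were lower (Kcnj16, Kcnab3, Kcnd2 and Kcnma1), against 3.92% and 4.04% of all tested genes. At an unadjusted p under 0.05, 12 members were higher and 8 lower, against 9.81% and 10.0% of all tested genes. The log2 fold change was positive for 41 and negative for 25 of the 66, with a median of 0.16 beside -0.00089 for all tested genes.

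**Figure D3:**
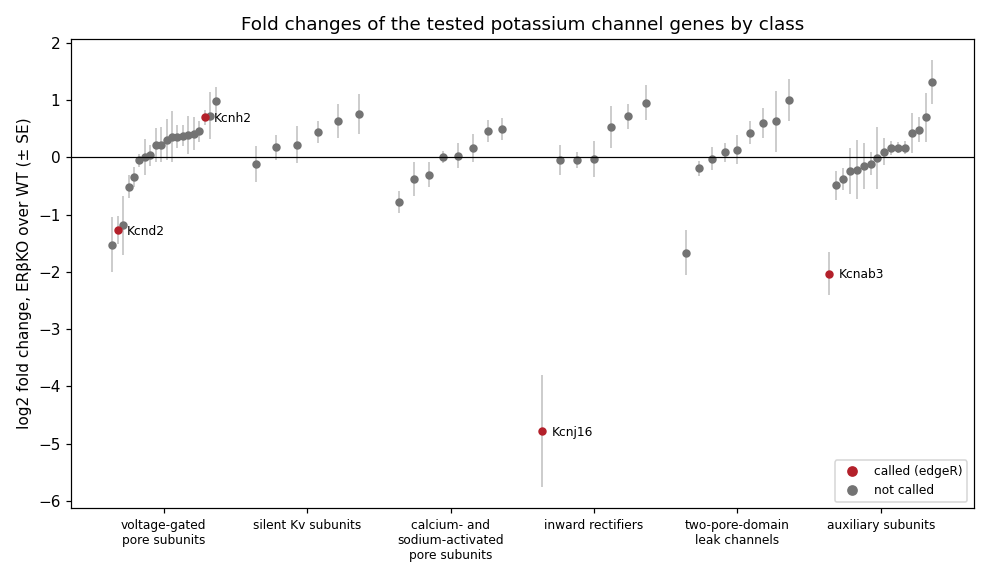
Log2 fold change (ERβKO over WT) with its standard error for the 66 tested members, by class and sorted within each class. Red points are the 4 genes called by edgeR and grey points the others. Kcnj16 stands lowest at -4.78, followed by Kcnab3 at -2.03.

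The calls turned on single libraries. Leaving out WT replicate 2, the WT ovary nearest to the ERβKO ovaries, raised the number of called members from 4 to 10, with Kcne4, Kcnf1, Kcnk5 and Kcnk13 added as higher and Kcnk3 and Kcnma1 as lower. Over all genes the calls rose in the same fit from 287 of 16722 to 919 of 16542. This ovary was singled out by these same data. Fold changes and p-values without it, here and below, describe its weight and do not test the genotypes. Without WT replicate 1 or 5, or without ERβKO replicate 2 or 4, edgeR called no member, and over all genes it called 118, 110, 60 and 80. Without WT replicate 4 or ERβKO replicate 3 Kcnab3 was the 1 member called, and without ERβKO replicate 1 it was Kcnh2. Over all genes these 3 fits called 161, 152 and 253.

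Among inward rectifiers, Kcnj16 fell in ERβKO ovaries. Kcnj16 (ENSMUSG00000051497, chr11:110968033-111027968 of GRCm38) encodes Kir5.1, which conducts little alone and forms pH-sensitive channels with Kir4.1 or Kir4.2. Ovaries of WT replicates 1 to 5 gave 148, 18, 26, 226 and 280 counts, and those of ERβKO replicates 1 to 4 gave 3, 9, 5 and 6. WT replicates 2 and 3 were far below the other WT ovaries but still above every ERβKO ovary. The deposited FPKM were 2.26, 0.183, 0, 2.81 and 3.91 in WT, while in ERβKO ovaries replicate 2 had 0.0974 and the others were listed at 0. The value of 0 in WT replicate 3 stands beside 26 counts, so that an FPKM listed at 0 does not mean that no reads were counted. The log2 fold change was -4.78 (SE 0.98, adjusted p = 0.0378 in edgeR), and it ranged from -5.07 to -4.33 with single libraries left out, while the adjusted p ranged from 1.43e-05 to 0.321 over the 18 alternatives.

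The partners of Kir5.1 were low in both genotypes. Kcnj10 (Kir4.1) had 13 to 34 counts in WT and 18 to 26 in ERβKO ovaries, and Kcnj15 (Kir4.2) had 7 to 15 and 6 to 28. Kcnj2, the gene of the strong inward rectifier Kir2.1, begins 38195 bases beyond the end of Kcnj16 on the same strand. Its level was 1.08 ± 0.384 FPKM (SD, n = 5) in WT and 1.03 ± 0.171 FPKM (SD, n = 4) in ERβKO ovaries, with a log2 fold change of -0.06 (SE 0.26, adjusted p = 0.929 in edgeR).

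The 300 bases around the RefSeq start of Kcnj16 that is also the gene start in the deposited files (250 bases before and 50 after, GRCm38.p6, chr11:110967783-110968082, plus strand) are shown beside those of the other called genes, as the annotated start regions of the genes the comparison turned on. Kcnj16 has 4 annotated starts, and which start each gene uses in the ovary was not measured. In the Kcnj16 window the capitals mark the letters AAGGTCA read on the opposite strand, a motif known to be bound by NR5A receptors such as LRH-1, beginning 190 bases before the start. In the other windows the capitals mark CG dinucleotides. For Kcnd2 the window is chr6:21215096-21215395 on the plus strand, and for Kcnh2 it is chr5:24329542-24329841 on the minus strand, at a start inside the longer gene model of the files. Kcnab3 has no window in this table.
Kcnj16: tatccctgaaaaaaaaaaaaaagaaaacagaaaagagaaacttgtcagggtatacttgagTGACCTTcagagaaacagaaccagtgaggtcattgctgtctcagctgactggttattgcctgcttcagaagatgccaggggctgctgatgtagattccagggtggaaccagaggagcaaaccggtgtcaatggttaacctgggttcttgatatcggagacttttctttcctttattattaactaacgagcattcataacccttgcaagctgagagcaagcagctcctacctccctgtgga
Kcnd2: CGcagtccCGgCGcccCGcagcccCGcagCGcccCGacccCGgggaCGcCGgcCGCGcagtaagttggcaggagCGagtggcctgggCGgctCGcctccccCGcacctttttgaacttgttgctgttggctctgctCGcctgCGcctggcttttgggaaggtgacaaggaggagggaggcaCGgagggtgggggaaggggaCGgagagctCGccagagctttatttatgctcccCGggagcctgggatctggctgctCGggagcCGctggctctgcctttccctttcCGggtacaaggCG
Kcnh2: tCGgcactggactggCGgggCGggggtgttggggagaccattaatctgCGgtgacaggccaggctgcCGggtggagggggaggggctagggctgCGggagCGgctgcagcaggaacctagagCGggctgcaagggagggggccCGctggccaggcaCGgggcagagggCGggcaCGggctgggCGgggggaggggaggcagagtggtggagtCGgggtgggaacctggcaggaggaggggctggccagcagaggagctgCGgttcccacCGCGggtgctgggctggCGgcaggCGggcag

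The windows differ in base composition. The Kcnj16 window has a GC content of 44.3% and 3 CG dinucleotides, while the Kcnd2 window has 68.7% and 26 and the Kcnh2 window 74.3% and 19. The medians were 52.7% and 7 over all 32851 windows and 58.0% and 9 over the 92 windows of the 67 members with an entry. Searched on both strands, AAGGTCA was found in 4.72% of all windows and in 3 of the 92 member windows, those of Kcnf1, Kcnh1 and 1 of 4 starts of Kcnj16. The palindromic estrogen response element, which is GGTCA followed after 3 bases by its reverse complement, was found in 0.07% of all windows and in none of the 92 member windows, which says only that these letters are not in these 300 bases. AAGGTCA shares the letters GGTCA with the response element.

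The other inward rectifiers were not called by edgeR. Kcnj3, the gene of the G protein-gated subunit GIRK1, had 2.64, 2.09, 2.84, 3.54 and 3.50 FPKM in WT and 4.74, 5.55, 2.91 and 5.67 in ERβKO ovaries. ERβKO replicate 3 lay within the WT range and the other 3 above it. The log2 fold change was 0.71 (SE 0.22), with an adjusted p of 0.111 in edgeR and 0.0296 in DESeq2. A predicted transcript on the opposite strand, Gm26794, covers 31.1% of its exon bases in GENCODE M21, and it is not stated whether reads were counted by strand. Kcnj5 (GIRK4), with which GIRK1 assembles, was low, with 0.151 ± 0.0884 FPKM in WT and 0.324 ± 0.0696 in ERβKO ovaries and a log2 fold change of 0.95 (adjusted p = 0.130 in edgeR). Kcnj8, the Kir6.1 pore of vascular ATP-sensitive channels, had 4.17 ± 0.748 FPKM in WT and 3.99 ± 0.399 in ERβKO ovaries, with a log2 fold change of -0.05 (SE 0.14). Its sign turned, to 0.0029 without WT replicate 4 and to 0.0074 without ERβKO replicate 4. The remaining 8 inward rectifiers had at most 7 counts in any library.

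Among auxiliary subunits, the Kvβ gene Kcnab3 fell and the others did not pass the test. Kcnab3 (ENSMUSG00000018470, chr11:69326258-69333042 of GRCm38) encodes Kvβ3, a cytoplasmic subunit related to aldo-keto reductases that binds Kv1 channels. Its level was 25.5, 13.9, 13.1, 18.6 and 29.1 FPKM across WT replicates 1 to 5 and 4.23, 1.86, 7.79 and 6.70 across ERβKO replicates 1 to 4. Every ERβKO ovary lay below every WT ovary, and the WT ovaries themselves ranged from 13.1 to 29.1 FPKM. Its log2 fold change was -2.03 (SE 0.37, adjusted p = 0.0258 in edgeR), from -2.28 to -1.76 with single libraries left out. The adjusted p ranged from 1.20e-06 to 0.117 over the 18 alternatives, 10 of which called Kcnab3. Kcnj16, Kcnd2 and Kcnh2 were each called by fewer of the 18. An opposite-strand transcript, Kcnab3os, covers 5.13% of the exon bases of Kcnab3 and had 24 counts or fewer in every library.

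Within the Kvβ family the make-up differed between the genotypes, a comparison chosen after the values were seen. Kcnab3 made up 65.0% to 86.9% of the summed FPKM of Kcnab1, Kcnab2 and Kcnab3 in WT and 21.4% to 56.7% in ERβKO ovaries. Kcnab1 (Kvβ1) had 4.58 ± 0.655 FPKM in WT and 5.25 ± 0.521 in ERβKO ovaries, with a log2 fold change of 0.17 (SE 0.12, adjusted p = 0.457 in edgeR). Kv1 pore genes, the partners of Kvβ subunits, were lower in level than Kcnab3 in WT. The highest of them, Kcna2, had 1.19 ± 0.489 FPKM in WT and 1.56 ± 0.588 in ERβKO ovaries. Kcna5 (Kv1.5) had 56, 33, 32, 76 and 49 counts in WT and 44, 11, 8 and 14 counts in ERβKO ovaries, with a log2 fold change of -1.53 (SE 0.48) and an adjusted p of 0.121 in edgeR and 0.0271 in DESeq2. ERβKO replicate 1 lay within the WT range, and the mean level of Kcna5 was below 1 FPKM in both genotypes.

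No other auxiliary subunit passed the test. The log2 fold change of Kcne3 was -0.38 (SE 0.20, adjusted p = 0.317 in edgeR). The calcium-binding KChIP subunit Kcnip3, also known as the repressor DREAM, had 8.25 ± 1.04 FPKM in WT and 9.36 ± 0.744 in ERβKO ovaries, with a log2 fold change of 0.17 (SE 0.095). For Kcnmb1, the BK β1 subunit typical of smooth muscle, the levels were 4.93 ± 0.914 FPKM and 5.64 ± 0.170 FPKM. Kcnip4 was higher in every ERβKO than in every WT ovary but scarce, with 1, 9, 5, 8 and 6 counts in WT and 15, 16, 12 and 19 counts in ERβKO ovaries, and its log2 fold change of 1.31 (SE 0.39) did not pass the threshold (adjusted p = 0.105 in edgeR). Kcne4, an inhibitory KCNE subunit, had 1.97, 6.07, 1.90, 3.04 and 1.69 FPKM in WT and 3.69, 3.46, 4.40 and 5.07 in ERβKO ovaries. WT replicate 2 had the highest value of all 9, and without it the log2 fold change of Kcne4 went from 0.42 to 0.86 (adjusted p = 0.0377 in edgeR).

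Among voltage-gated pore subunits, Kcnd2 fell and Kcnh2 rose. Kcnd2 (ENSMUSG00000060882, chr6:21215503-21729805 of GRCm38) encodes Kv4.2, which carries a fast-inactivating A-type current. Its level was 6.11, 5.58, 3.64, 4.75 and 6.57 FPKM in WT and 2.67, 1.17, 2.40 and 2.68 in ERβKO ovaries. No ERβKO ovary reached the lowest WT ovary, replicate 3, and ERβKO replicate 2 was the lowest of all. This gave a log2 fold change of -1.27 (SE 0.25, adjusted p = 0.0323 in edgeR), from -1.38 to -1.06 with single libraries left out, with an adjusted p from 4.27e-05 to 0.145 over the alternatives.

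The other Kv4 genes did not pass the test. Kcnd3 (Kv4.3) had 4.74 ± 0.623 FPKM in WT and 5.18 ± 0.998 in ERβKO ovaries, with a log2 fold change of -0.05 (SE 0.12, adjusted p = 0.846 in edgeR) whose sign turned under 5 alternatives. Kcnd1 (Kv4.1) had 0.682 ± 0.136 FPKM in WT and 0.483 ± 0.0858 in ERβKO ovaries and a log2 fold change of -0.52 (SE 0.20, adjusted p = 0.195 in edgeR). Kcnd2 made up 41.6% to 56.2% of the summed FPKM of the 3 Kv4 genes in WT and 18.1% to 37.0% in ERβKO ovaries, a comparison also chosen after the values were seen. In WT ovaries Kcnd2 and Kcnd3 were thus at like levels, while in every ERβKO ovary Kcnd3 was the higher of the pair.

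Kcnh2 was the 1 member that edgeR called higher. Kcnh2 (ENSMUSG00000038319, chr5:24319589-24351604 of GRCm38) encodes ERG1, the channel of the rapid delayed rectifier current of the heart. Its level was 3.94, 4.43, 5.02, 3.87 and 4.10 FPKM in WT and 5.47, 6.16, 8.29 and 7.37 in ERβKO ovaries. The WT ovaries lay close together, and the lowest ERβKO ovary, replicate 1, was above the highest WT ovary. For Kcnh2 the log2 fold change was 0.69 (SE 0.13, adjusted p = 0.0242 in edgeR), from 0.60 to 0.80 with single libraries left out, with an adjusted p from 0.000153 to 0.148 over the alternatives. The 4 tested members among the EAG, ERG and ELK channels all had a positive log2 fold change, with a median of 0.58. Of these, Kcnh6 (ERG2) had 10, 15, 16, 16 and 18 counts in WT and 27, 52, 21 and 32 in ERβKO ovaries, again without overlap, with a log2 fold change of 0.98 (SE 0.25) and an adjusted p of 0.0732 in edgeR. Kcnh3 (ELK2) had a log2 fold change of 0.46 (adjusted p = 0.207 in edgeR) and Kcnh1 (EAG1) of 0.36 (adjusted p = 0.367 in edgeR).

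**Figure D4:**
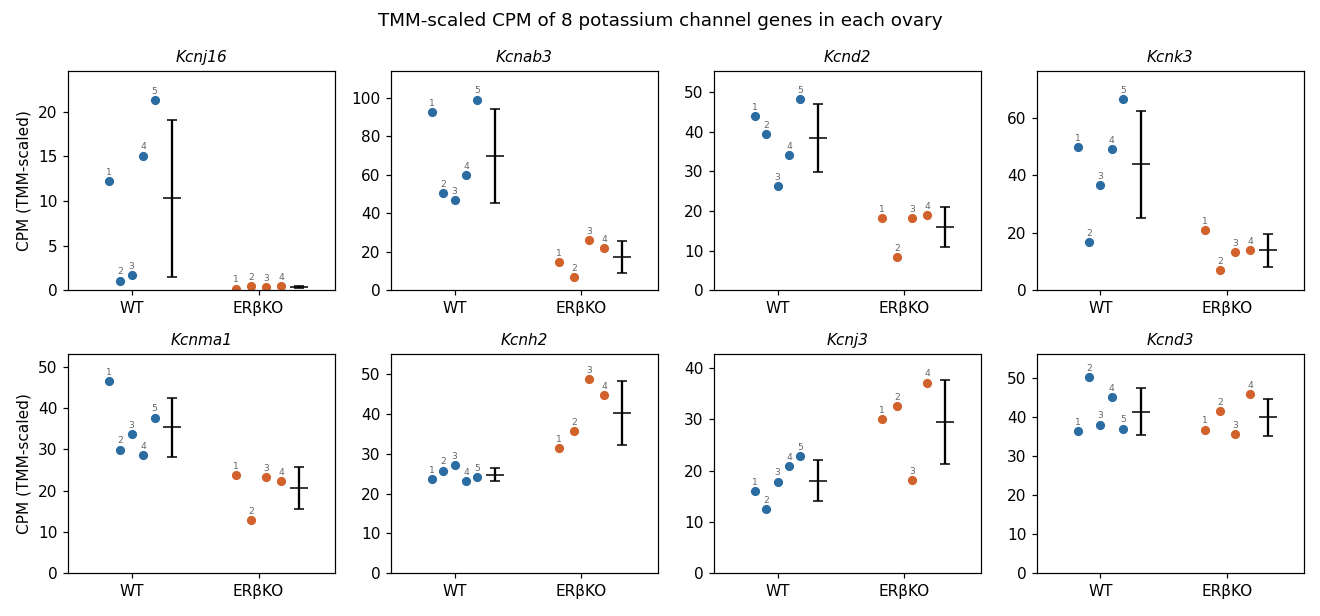
TMM-scaled CPM of 8 members in each ovary, with the replicate number at each point and the mean ± SD beside each group. Kcnj16, Kcnab3, Kcnd2 and Kcnma1 are lower and Kcnh2 is higher in every ERβKO ovary, Kcnk3 and Kcnj3 overlap between the genotypes, and Kcnd3 shows like values in both. WT replicate 2 is the lowest WT ovary for Kcnj16, Kcnk3 and Kcnj3.

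Calcium- and sodium-activated channels had no call in edgeR. Kcnma1, the pore of the large-conductance BK channel, had 7.84, 5.14, 5.49, 4.52 and 6.01 FPKM in WT and 4.45, 2.25, 3.92 and 3.58 in ERβKO ovaries. The groups did not overlap, but WT replicate 4 and ERβKO replicate 1 nearly met. Its log2 fold change was -0.78 (SE 0.20), with an adjusted p of 0.0678 in edgeR and 0.00465 in DESeq2. All 4 genes of BK β subunits had a positive log2 fold change, between 0.10 (Kcnmb2) and 0.70 (Kcnmb3), and none passed the test. The sodium-activated channel gene Kcnt1 had 3.97 ± 0.987 FPKM in WT and 5.65 ± 0.574 in ERβKO ovaries (log2 fold change 0.46, SE 0.19, adjusted p = 0.218 in edgeR), and its relative Kcnt2 had 3.98 ± 0.731 and 4.15 ± 0.288 FPKM (log2 fold change 0.01, SE 0.11). Kcnu1, whose channel Slo3 is known from sperm, was measured at 1.54 ± 0.178 FPKM in WT and 1.55 ± 0.463 in ERβKO ovaries.

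K2P channels held the second highest summed level, and none was called by edgeR. Kcnk3 encodes the acid-sensitive leak channel TASK-1, and its level was 9.66, 3.08, 7.02, 9.33 and 12.3 FPKM in WT and 3.98, 1.33, 2.43 and 2.76 in ERβKO ovaries. WT replicate 2, the lowest WT ovary, lay among the ERβKO ovaries, and the other 4 WT ovaries were above all of them. TASK-1 transcripts had a log2 fold change of -1.66 (SE 0.39), with an adjusted p of 0.0573 in edgeR and 0.000367 in DESeq2. Without WT replicate 2 it was -1.87 (SE 0.29, adjusted p = 0.00922 in edgeR). Kcnk3 was the 1 member called with the replicate number as a block, but the numbers did not pair the samples, so this call adds no support.

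Kcnk1, Kcnk2 and Kcnk5 had higher levels than Kcnk3 in every ERβKO ovary. Kcnk5 (TASK-2) had 5.80, 12.6, 7.09, 8.37 and 6.07 FPKM in WT and 9.84, 13.0, 10.5 and 10.6 in ERβKO ovaries, so that WT replicate 2 lay with the ERβKO ovaries. Its log2 fold change was 0.43 (SE 0.20, adjusted p = 0.268 in edgeR) and, without that ovary, 0.64 (SE 0.13, adjusted p = 0.0205 in edgeR). The same held for Kcnk13 (THIK-1), with 0.503, 1.47, 0.601, 0.460 and 0.363 FPKM in WT and 0.985, 1.40, 1.64 and 1.56 in ERβKO ovaries. Its log2 fold change went from 0.99 (SE 0.37, adjusted p = 0.177 in edgeR) to 1.49 (SE 0.23, adjusted p = 0.00895 in edgeR) without WT replicate 2. For Kcnk5 and Kcnk13 the ovary left out was the WT ovary that lay with the ERβKO ovaries. Leaving it out widens the difference, so the adjusted p without it is no test. Kcnk1 had a log2 fold change of 0.09 (SE 0.17, adjusted p = 0.805 in edgeR), and Kcnk2, the mechanosensitive TREK-1, had 7.67 ± 1.02 FPKM in WT and 6.98 ± 1.27 in ERβKO ovaries (log2 fold change -0.20, SE 0.12).

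Of the 10 silent Kv subunits 6 were tested and none was called. Kcnf1 (Kv5.1) was the 1 gene of this class above 1 FPKM, with 3.39, 4.86, 2.35, 2.67 and 3.14 FPKM in WT and 3.56, 5.52, 4.28 and 4.64 in ERβKO ovaries. WT replicate 2 was again among the ERβKO ovaries, and the log2 fold change was 0.44 (SE 0.20, adjusted p = 0.250 in edgeR) with it and 0.61 (SE 0.16, adjusted p = 0.0469 in edgeR) without it. Kcns3 (Kv9.3) had 0.578 ± 0.0893 FPKM in WT and 0.648 ± 0.117 in ERβKO ovaries. Kcnb2, a Kv2 gene with whose product silent subunits assemble, had a log2 fold change of 0.22 (SE 0.30) and did not pass the test.

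A list of 35 further genes held accessory subunits of potassium channels from other gene families, pacemaker channels, sodium-potassium pump subunits and cation-chloride cotransporters. Of these 30 were tested, 15 with a positive and 15 with a negative log2 fold change (median -0.01), and edgeR called 0 of them, with 4 higher and 7 lower at an unadjusted p under 0.05. DESeq2 called 1 higher and 1 lower. Dpp10 and Dpp6 encode partners of Kv4 channels. Dpp10 had 5, 15, 9, 12 and 16 counts in WT and 23, 60, 67 and 26 in ERβKO ovaries (log2 fold change 1.85, SE 0.43, adjusted p = 0.0546 in edgeR), and Dpp6 had 3.41 ± 0.518 FPKM in WT and 2.40 ± 0.741 in ERβKO ovaries.

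Markers of cell types also differed between the genotypes. Of 10 luteal markers 9 had a negative log2 fold change, 0 were called by edgeR, 5 were lower at an unadjusted p under 0.05 and DESeq2 called 3 lower, and their summed level was 6220, 3133, 3911, 4175 and 6740 FPKM in WT and 2600, 2588, 4076 and 2860 in ERβKO ovaries. For 10 granulosa cell markers, 9 with a positive log2 fold change, of which edgeR called 2 and DESeq2 4 higher, the summed level was 619 to 719 FPKM in WT and 820 to 1039 in ERβKO ovaries, without overlap. Adipocyte markers, with 7 of 7 higher at an unadjusted p under 0.05 and 0 called by edgeR but 3 by DESeq2, summed to 137 to 262 FPKM in WT and 157 to 1023 in ERβKO ovaries. The 10 markers of smooth muscle cells and pericytes summed to 659 to 1096 FPKM in WT and 667 to 782 FPKM in ERβKO ovaries. Of these, 8 had a negative and 2 a positive log2 fold change, and 4 were lower at an unadjusted p under 0.05. DESeq2 called 1 of them lower and edgeR called 0. The 6 neuronal markers summed to 6.65 to 9.35 FPKM in WT and 7.79 to 10.5 FPKM in ERβKO ovaries. Of the Schwann cell list, which summed to 16.5 to 39.3 FPKM in WT and 39.2 to 83.0 in ERβKO ovaries, Sox10 and Foxd3 were below 0.1 FPKM in every ovary. The part of these cell types in the changes of Kcnj16, Kcnab3, Kcnd2 and Kcnh2 was not tested.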

How the data were processed

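RNA was measured in ovaries of 5 WT and 4 ERβKO mice. Stranded polyadenylated RNA libraries were mapped by the authors to GRCm38 with STAR. Fragment counts per gene were made by the authors with FeatureCounts and deposited without normalization. The authors calculated the deposited FPKM, TPM and per-base coverage values with StringTie, and TPM and coverage were not used for results.

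Counts were fitted in R 4.3.3 with edgeR 4.0.16 (filterByExpr, TMM, quasi-likelihood test, genotype as the factor), with Benjamini-Hochberg adjustment over 16722 genes. DESeq2 1.42.0, the tool of the paper, and limma 3.58.1 on log2-transformed FPKM (pseudocount 1 or 0.1) were alternatives, beside other scaling factors, no filter, the replicate number as a block and single libraries left out. The fits were tested on simulated data. Depth was 12353740 to 18717510 counts per library. Tables and plots were made in Python 3.11.15 with pandas 2.3.3, NumPy 2.4.6 and matplotlib 3.10.9. Start windows were taken from RefSeq (GRCm38.p6), and exon overlaps from GENCODE M21, in which 57 of the 92 members have the same position as in the files and all 92 overlap.

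Named were the members called by edgeR or DESeq2, those the paper names, the 12 with the highest mean FPKM, those whose groups did not overlap and the 2 highest of each class. Further genes named as partners or neighbours, and Kcne4 and Kcnk13, which were called without WT replicate 2, were chosen after their values were seen. The members and lists were chosen with earlier results of these data known. Some single genes are left unreported.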

Additional observations from a re-analysis of the deposited data

Results flagged for a closer look

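For the 21 named members, each genotype was searched for an ovary far from the others, by the gap to its nearest neighbour as a share of the range. Of 42 groups, 4 had such an ovary. The limit used gives about 1 in 20 by chance for continuous values. That rate does not apply to groups holding FPKM listed at 0, so the 4 cannot be set against it. Kcnh6 was listed at 0 FPKM in WT replicate 1, while the other WT ovaries had 0.152 to 0.214 FPKM. Kcnip4 was also listed at 0 FPKM in WT replicate 1, with 0.210 to 0.259 FPKM in the other WT ovaries. In ERβKO replicate 4 Kcnip4 had 0.530 FPKM, above the 0.334 to 0.365 FPKM of the other ERβKO ovaries. Kcnj16 had 0.0974 FPKM in ERβKO replicate 2 and was listed at 0 in the other ERβKO ovaries, so any value above 0 would have been flagged. Kcnh6 and Kcnip4 are scarce in both genotypes, and Kcnj16 is scarce in ERβKO ovaries. WT replicate 1, whose Kcnh6 and Kcnip4 are listed at 0 FPKM, had 10 counts of Kcnh6 and 1 count of Kcnip4.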

How the results depend on the processing

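The 4 called members (1 higher, 3 lower) were also 4 with DESeq2's size factors or upper-quartile factors in edgeR, and 5 without the filter on low counts. Over all genes these fits called 303, 316 and 388. DESeq2 called 7 (2 higher, 5 lower), and 802 over all genes. Limma on log2 FPKM called 2 (0 higher, 2 lower) with a pseudocount of 1, 1 (0 higher, 1 lower) with 0.1 and 0 without a filter. Its calls over all genes were 191, 203 and 39. With single libraries left out the counts ranged from 0 to 10, from 0 to 5 higher and from 0 to 5 lower, with the 10 reached without WT replicate 2, while edgeR's calls over all genes ranged from 60 to 919, beside 287 with all libraries. With the 7 libraries numbered below 200, which leave out WT replicates 4 and 5, 0 were called, and 51 over all genes. With the replicate number as a block 1 was called (0 higher, 1 lower), and 155 over all genes. The numbers did not pair the samples, since same-numbered ovaries correlated at -0.043 to 0.130 and none correlated best with its own number. Of the 35 further genes 0 were called, against 2 by DESeq2 and 0 to 1 with single libraries left out.

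Over 21 named members and 18 alternatives, 320 fold changes kept direction and side of the threshold, 42 lost and 9 gained significance. Reversed were Kcnd3, with 0.10 (limma, pseudocount 1, with or without filter), 0.12 (pseudocount 0.1), 0.028 (without WT replicate 2) and 0.0058 (without ERβKO replicate 3), and Kcnj8, with 0.0029 and 0.0074 (without WT or ERβKO replicate 4). With single libraries left out, their lowest values were -0.12 and -0.13. None of these passed the threshold, and the cause was not tested. The 26 members with at most 18 counts in any library were too shallow to test.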
